A study of Mus musculus with 18 samples.

Results

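Cda and As3mt, which encode metabolic enzymes, are 2 of the 24 genes for which the authors' table gives a histone mark score at the transcription start site (TSS) in mouse cerebellum. They were picked by gene name, listed there as cda and as3mt, with their scores in all 16 chromatin immunoprecipitation sequencing libraries known, so every level and difference of these genes is a description and carries no test. Each of 3 modifications of histone H3 was measured with 2 libraries per group: H3K4me3 (trimethylation of lysine 4), H3K9/14ac (acetylation of lysines 9 and 14) and H3K27ac (acetylation of lysine 27). The groups were wild type (WT) at postnatal day 6 (P6), WT at postnatal day 22 (P22) and a conditional knockout of Chd4 (cKO) at P22, and H3K27ac was not measured at P6. The sources used here do not state the Cre driver, the cells that lose Chd4, the age at which they lose it or the animals behind a library. Replicates may therefore differ by technical causes alone. Cerebella were used whole, and a change within cells cannot be told apart from a change in cell proportions. Of 28 markers of cerebellar cell types looked up in the table, 1 was present, Nhlh1 of immature granule neurons, which is too few to check the tissue against its markers.

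Cytidine deaminase, the product of Cda, converts cytidine and deoxycytidine to uridine and deoxyuridine in the salvage of pyrimidine nucleosides. As3mt encodes the methyltransferase that adds methyl groups from S-adenosylmethionine to arsenic, a step in its clearance. Neither gene is a classical neuronal marker. H3K4me3 is found around the start sites of active genes, and the 3 acetylated lysines accompany it there. Chd4 is the ATP-dependent remodeling subunit of NuRD, a complex that also contains the histone deacetylases Hdac1 and Hdac2. Of the 20 genes listed here for pyrimidine nucleoside salvage and deamination, the table holds Cda and no other. Of 21 genes of arsenic handling and methyl donor metabolism it holds As3mt and no other, and of 15 NuRD subunit genes it holds 0. Chd4 is among those 15, so the genotype labels were not checked against it. No statement on either pathway can therefore be made beyond these genes.

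The table places Cda on chromosome 4 at position 137923870 and As3mt on chromosome 19 at position 46781933, in mm9, the one build that the submitters' processing notes name. Name, chromosome and strand of both were as in RefSeq, whereas the numeric identifiers in their rows were not the RefSeq identifiers of these genes. Such identifiers matched the named gene in 0 of the 24 rows. The nearest protein-coding neighbours in RefSeq are Pink1 and Fam43b for Cda and Borcs7 and Cnnm2 for As3mt. The 250 bases upstream of each RefSeq start site (build GRCm38.p6) are printed 5′ to 3′ on the gene's strand, because these promoters carry the scores. Capitals mark CpG dinucleotides, which are frequent at many promoters with H3K4me3. The windows are chr4:138367956-138368205 on the minus strand and chr19:46707208-46707457 on the plus strand.
Cda: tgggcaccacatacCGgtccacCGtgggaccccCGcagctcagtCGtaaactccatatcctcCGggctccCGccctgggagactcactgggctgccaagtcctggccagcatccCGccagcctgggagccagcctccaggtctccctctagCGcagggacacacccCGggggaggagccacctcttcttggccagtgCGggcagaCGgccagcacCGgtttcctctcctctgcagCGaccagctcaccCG
As3mt: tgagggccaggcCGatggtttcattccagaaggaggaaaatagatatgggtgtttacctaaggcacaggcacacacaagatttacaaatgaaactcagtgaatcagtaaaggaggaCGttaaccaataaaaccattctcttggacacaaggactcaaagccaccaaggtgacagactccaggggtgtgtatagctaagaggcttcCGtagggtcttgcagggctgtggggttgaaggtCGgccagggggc

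The printed stretch holds 14 CpGs at Cda and 4 at As3mt. Over the whole RefSeq window, which runs on for 50 bases past the start site, Cda had 18 CpGs and a GC content of 68.3%, and As3mt had 9 CpGs and 52%. The median over 32841 mouse promoter windows of that length was 7 CpGs and 52.7% GC. GC content was lower than at Cda in 88.0% of those windows and lower than at As3mt in 46.6%, so As3mt lies near the middle and Cda in the upper part. Their ratios of observed to expected CpGs, 0.53 and 0.46, were closer to each other. On both strands 6 motifs were searched. The GC box GGGCGG matched once at Cda, 181 bases before the start on the opposite strand, and is present in 35.7% of all windows. CANNTG, the E-box, CCAAT and TGANTCA, the AP-1 motif, each matched once at As3mt, 166, 128 and 152 bases before the start, and occur in 72.3%, 37.4% and 7.81% of windows. GCGTG, the core of the aryl hydrocarbon receptor element, matched once at As3mt across the start site and occurs in 32.4%. TATAAA matched neither window and occurs in 13.6%. A match describes the letters of the window only. The promoters thus differ in base composition and share none of these motifs.

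Cda carried little H3K4me3 in both WT stages and much more in the cKO. Its H3K4me3 score was -0.11 and 0.23 in the P6 libraries, 0.77 and 1.45 in WT at P22, and 14.0 and 27.9 in the cKO. Both cKO libraries lay above all 4 WT libraries, with 12.6 score units between the lowest cKO and the highest WT library. On the log2(score + 2) scale, used for all differences here because scores go below 0, the cKO minus WT difference at P22 was 2.82 ± 0.36 (SE of a limma fit over the table, n = 2 libraries per group). It had rank 2 from the largest among the 23 promoters with values in all libraries, between Nhlh1 (4.00), a transcription factor gene of newly postmitotic neurons, and As3mt. The median over these promoters was 0.81. Without cKO replicate 2, the higher of the pair, the Cda difference was 2.37. The size also depends on the constant added before the log, at 3.32 with 1 and 1.44 with 10.

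Acetylation at Cda was also higher in the cKO than in WT. H3K9/14ac scored 1.34 and 0.66 at P6, 1.20 and 1.96 in WT at P22, and 9.83 and 16.2 in the cKO. The WT stages overlapped with each other, and the lowest cKO library stood 7.87 above the highest WT library. The P22 difference between genotypes was 2.04 ± 0.28 (SE, log2 scale), rank 2 of 23 after Nhlh1 (2.58) and before Ripk4 (1.66), a kinase gene of keratinocyte differentiation. H3K27ac at Cda was 1.67 and 1.36 in WT and 10.5 and 13.5 in the cKO, again without overlap. That difference of 1.99 ± 0.22 had rank 3, between Elavl2 (2.00), a neuronal RNA-binding protein gene, and Ripk4 (1.83). The table medians for the acetylation marks were 0.94 and 0.97. With 10 added in place of 2, the Cda differences were 0.98 and 0.93.

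As3mt started from a higher H3K4me3 level than Cda and reached a lower one. H3K4me3 at As3mt scored 2.06 and 3.26 at P6, 2.05 and 3.57 in WT at P22, and 10.7 and 18.5 in the cKO. The WT stages overlapped fully, and 7.14 score units separated the lowest cKO from the highest WT library. The log2 difference between genotypes at P22 was 1.77 ± 0.35 (SE), rank 3 of 23, with Oprl1, the nociceptin receptor gene, next at 1.74.

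For H3K9/14ac the As3mt scores were 1.30 and 1.80 at P6, 0.94 and 1.11 in WT at P22, and 5.28 and 8.13 in the cKO. Both cKO libraries were above every WT library, by at least 3.48. The genotype difference of 1.51 ± 0.28 had rank 6, between Casq1 (1.53), the calsequestrin gene, and the promoter listed as clcf (1.29). H3K27ac at As3mt was 2.14 and 1.62 in WT and 7.78 and 9.40 in the cKO. Its difference of 1.45 ± 0.22 had rank 6 as well, between Casq1 (1.70) and the G protein beta subunit gene Gnb3 (1.36). With 10 added in place of 2, the As3mt differences in H3K4me3, H3K9/14ac and H3K27ac were 0.93, 0.59 and 0.64.

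**Figure D1:**
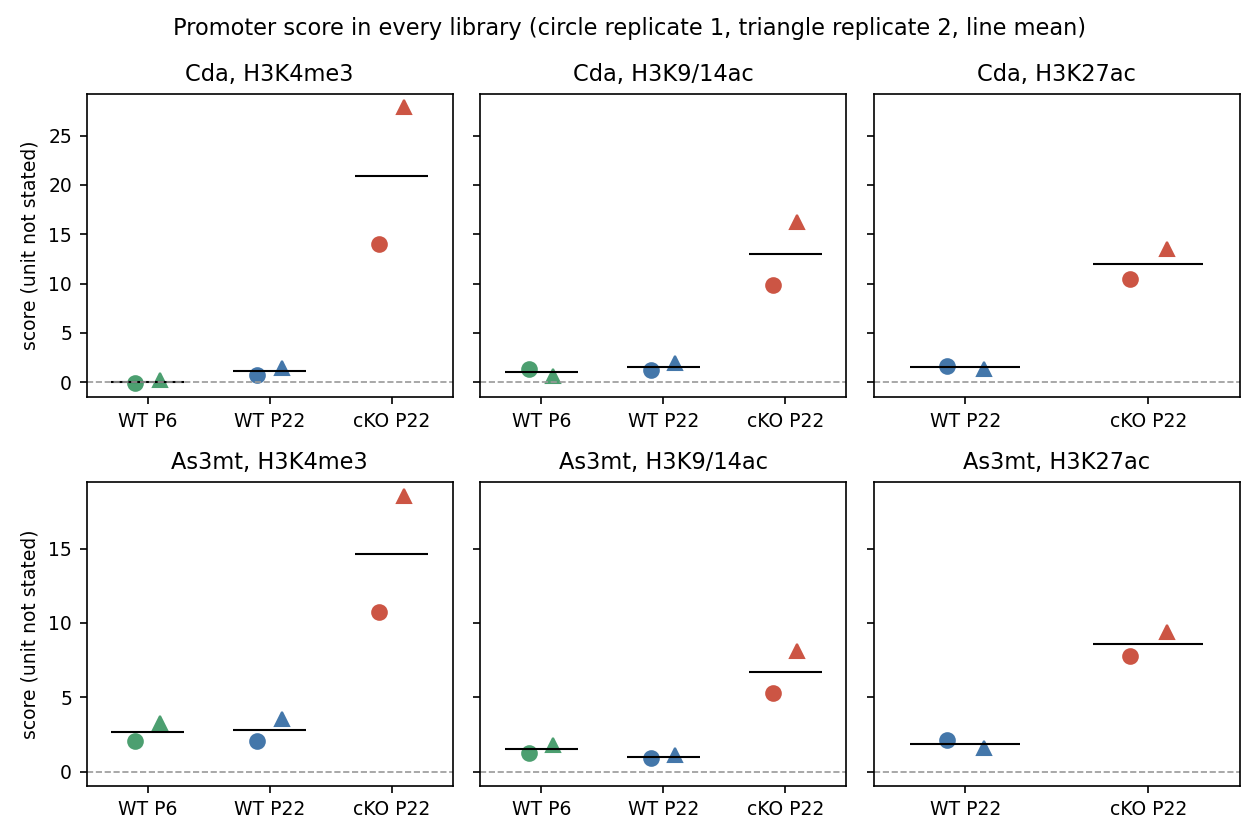
Score at the Cda (top) and As3mt (bottom) promoters in every library, by mark; points are libraries and lines are group means of 2 libraries. In each panel both cKO points lie above all WT points, with the lowest cKO score at 14.0, 9.83 and 10.5 for Cda and 10.7, 5.28 and 7.78 for As3mt.

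The cKO level exceeded both WT stages for both genes in both marks measured at P6, but this was common in the table. For H3K4me3, both cKO libraries lay above all 4 WT libraries at 12 of 23 promoters (52.2%), and for H3K9/14ac at 20 of 23 (87%). Against each WT stage alone, H3K4me3 separated 16 of 23 promoters at P22 (69.6%) and 15 at P6 (65.2%), and H3K9/14ac 22 (95.7%) and 20 (87%). For H3K27ac, where P22 is the only WT stage, they lay above both WT libraries at 22 of 23 (95.7%). In score units, the Cda gap over both WT stages was the largest of 23 promoters for H3K4me3 and for H3K9/14ac, and As3mt held ranks 4 and 5. These ranks come from the libraries in which the genes were chosen, and they support nothing further.

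**Figure D2:**
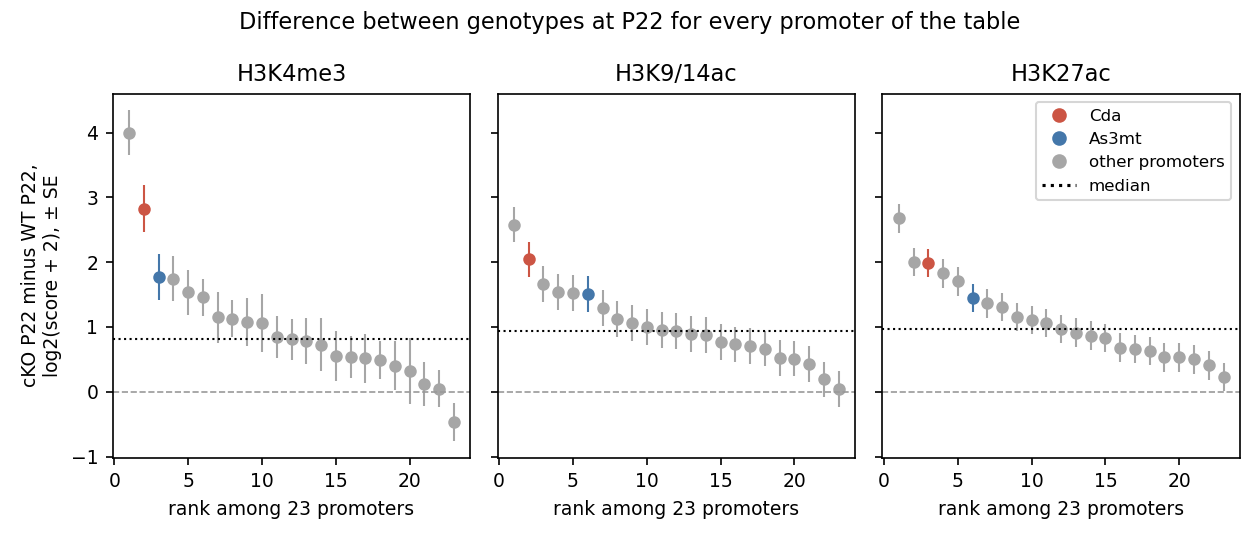
Difference between cKO and WT at P22 on the log2(score + 2) scale for each of 23 promoters, in order of size, with the SE of the limma fit as bars and the median as a dotted line. Cda stands at rank 2, 2 and 3, and As3mt at rank 3, 6 and 6, all above the medians of 0.81, 0.94 and 0.97.

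Set directly against P6, the cKO at P22 had a higher level of H3K4me3 by 3.41 ± 0.36 at Cda and by 1.81 ± 0.35 at As3mt (log2 scale, SE). The Cda value was the largest of 23 and the As3mt value had rank 4, beside a median of 0.73. H3K9/14ac gave 2.30 ± 0.28 and 1.28 ± 0.28, ranks 1 and 4, beside a median of 0.96. With each library centred on the median of the other promoters, the As3mt difference in H3K9/14ac was 0.075 ± 0.13, so As3mt exceeded the shift of the table in this mark by less than the error. Genotype and age differ together in this comparison. It also shares the cKO libraries with the comparison at P22, so the pair of results is not independent.

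Between P6 and P22 in WT, both genes differed less than they did between genotypes at P22. H3K4me3 at Cda was 0.59 ± 0.36 higher at P22 on the log2 scale (SE, n = 2), and both P22 libraries lay above both P6 libraries, as they did at 7 of 24 promoters (29.2%), with the opposite order at 6 (25%). The scores on both sides, at most 1.45, were low. This Cda difference had rank 4 of 24 from the largest, beside a median of 0.09, and was 0.65 ± 0.34 in centred libraries. At As3mt the H3K4me3 difference was 0.04 ± 0.35, well within the spread between libraries. H3K9/14ac differed by 0.26 ± 0.28 at Cda, with overlapping libraries. At As3mt it was lower at P22 by 0.23 ± 0.28, less than this SE, which was equal for all promoters of the mark. Both P22 libraries nevertheless lay below both P6 libraries, as at 9 of 24 promoters (37.5%), with the opposite order at 6 (25%). With each library centred on the median of the other promoters, this As3mt difference was -0.34 ± 0.13. Its size beside the error thus depends on the centring. H3K4me3 at P6 was low at both genes beside their cKO levels. Nhlh1 scored 37.0 and 50.1 for H3K4me3 at P6. Nhlh1, the 1 marker of immature granule neurons in the table, scored -0.06 and -0.50 for H3K4me3 in WT at P22 and 19.7 and 32.4 in the cKO. Nhlh1 thus rose in the cKO as Cda and As3mt did. For H3K4me3, both cKO libraries lay above WT at P22 at 16 of 23 promoters. Over all 16 libraries, after removal of each mark's mean, Nhlh1 had a Pearson correlation of 0.41 with Cda and 0.55 with As3mt. These had rank 20 of 22 for each gene. With each library centred on the median of the other promoters, the Nhlh1 correlation was 0.02 with Cda (rank 10) and 0.31 with As3mt (rank 6). The part of Nhlh1, or of immature granule neurons, in the genotype difference of Cda and As3mt was not tested.

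Most promoters of the table scored higher in the cKO, so the members were also placed within each library, as log2(score + 2) minus the median of 21 other promoters. For H3K4me3 Cda lay 2.14 and 2.02 below that median at P6, 1.19 and 1.67 below it in WT at P22, and 0.22 and 0.38 above it in the cKO. With H3K9/14ac Cda moved from between 0.28 and 0.91 below the median in the 4 WT libraries to 0.45 and 0.55 above it. H3K27ac at Cda went from 0.59 and 0.58 below to 0.31 and 0.37 above. Cda was therefore below the middle of the table in all 10 WT libraries and above it in all 6 cKO libraries. How many other promoters crossed it in this way was not counted, and Cda was chosen with these scores known. Its rank from the highest was 14 to 17 of 23 in the WT libraries for H3K4me3 and 7 or 10 in the cKO. For H3K9/14ac it was 13 to 20 and then 3 or 4, and for H3K27ac 15 or 16 and then 7.

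As3mt stayed below the median of the other promoters in all 16 libraries. For H3K4me3 it was 0.64 to 1.04 below in WT and 0.12 and 0.16 below in the cKO. H3K27ac changed from 0.42 and 0.47 below to 0.03 and 0.08 below. In H3K9/14ac the P6 libraries were 0.30 and 0.40 below, WT at P22 was 0.54 and 0.83 below, and the cKO was 0.25 and 0.29 below. The cKO and the P6 libraries were then apart by 0.0014, far less than the spread between replicates. As3mt held rank 12 to 14 of 23 for H3K4me3 in WT and 14 in the cKO, 16 to 18 and then 15 or 16 for H3K9/14ac, and 14 or 15 and then 13 or 14 for H3K27ac. Its place in the order of the table was hardly altered.

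**Figure D3:**
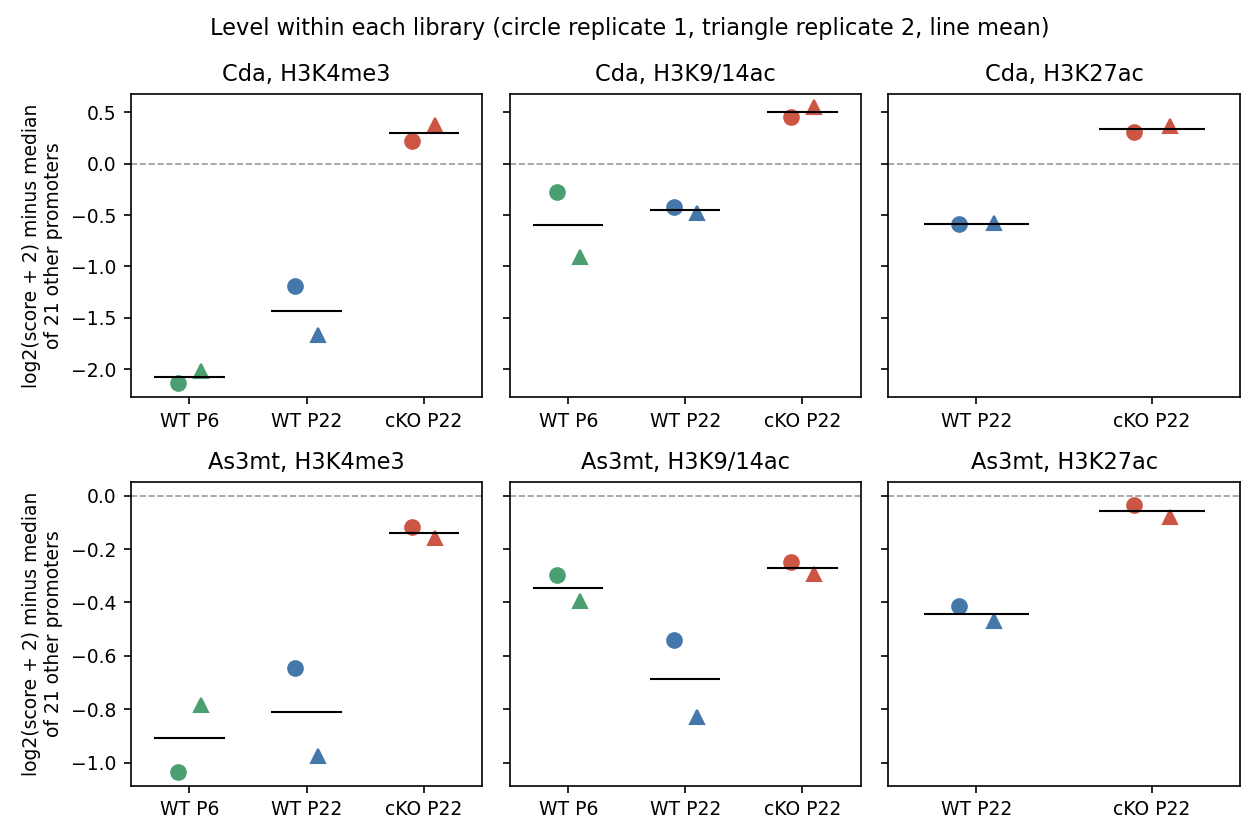
Level of Cda (top) and As3mt (bottom) within each library, as log2(score + 2) minus the median of 21 other promoters; points are libraries, lines are means, and the rows have different scales. Cda crosses from below to above 0 in the cKO in each mark, whereas As3mt stays under 0 and its cKO and P6 points nearly meet for H3K9/14ac.

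By this within-library measure the cKO minus WT difference at P22 was 1.73 ± 0.34 for H3K4me3, 0.95 ± 0.21 for H3K9/14ac and 0.92 ± 0.11 for H3K27ac at Cda (SE). At As3mt it was 0.67 ± 0.34, 0.42 ± 0.13 and 0.39 ± 0.11. Both cKO libraries lay above all WT libraries at Cda in each mark and at As3mt in H3K4me3 and H3K27ac, while the As3mt gap of 0.0014 in H3K9/14ac was no separation beyond the spread. Counted with any gap above 0, As3mt included, this held at 3 of 23 promoters (13%) for H3K4me3, at 3 of 23 (13%) for H3K9/14ac and at 8 of 23 (34.8%) for H3K27ac. The sources used here do not say how the 24 genes were chosen, so this places the genes among a selected set and not in the genome. In the authors' deposited table of mean curves around TSSs, the mean within 1000 bp of the TSS was 1.61, 2.03 and 2.16 times as high in cKO as in WT for H3K4me3, H3K9/14ac and H3K27ac. That curve averages genes that the sources used here do not name.

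At P22 the order of the 2 genes differed between genotypes for H3K4me3 and H3K27ac, and for H3K9/14ac Cda was the higher in both genotypes. Over all marks Cda was above As3mt in 6 of 6 cKO libraries and in 3 of 10 WT libraries, all 3 of them H3K9/14ac. For H3K4me3, Cda minus As3mt on the log2 scale was -1.10 and -1.24 at P6, -0.55 and -0.69 in WT at P22, and 0.33 and 0.54 in the cKO. The corresponding H3K27ac values were -0.17 and -0.11 in WT and 0.35 and 0.44 in the cKO. In H3K9/14ac they were 0.02 and -0.51 at P6, 0.12 and 0.35 in WT at P22, and 0.70 and 0.84 in the cKO. The groups at P22 did not overlap in any mark, but the share of other promoter pairs with such a separation was not counted. Both genes were chosen with these scores known, so this separation supports nothing further. The width of the scored window is not stated, and a common window for both genes was assumed for this comparison of levels.

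**Figure D4:**
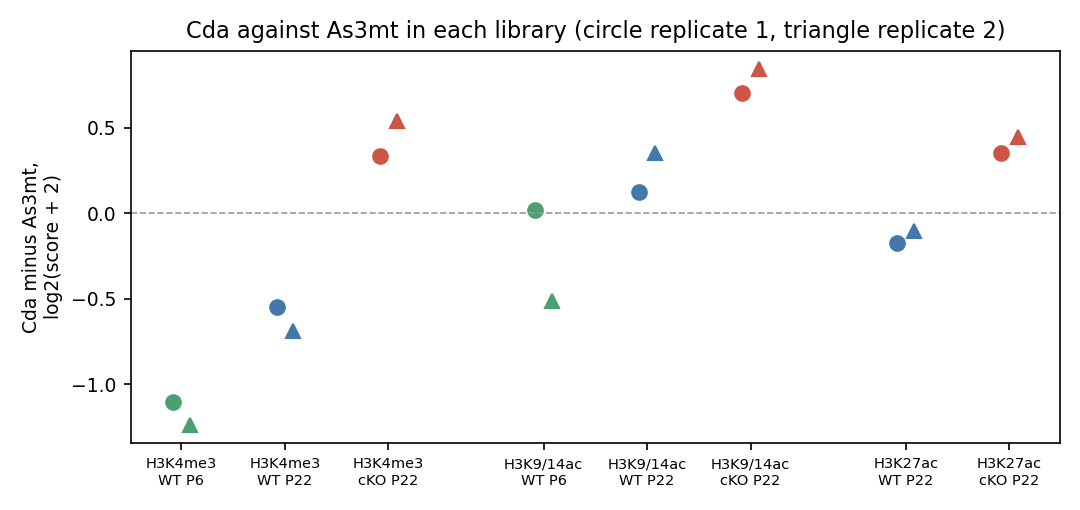
Cda minus As3mt in each library on the log2(score + 2) scale, by mark and group; circles are replicate 1 and triangles replicate 2. All 6 cKO points lie above 0, between 0.33 and 0.84, and all 6 WT points for H3K4me3 and H3K27ac lie below 0.

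Replicates shared shifts that touched both genes. In the cKO, replicate 2 exceeded replicate 1 at 20 of 23 promoters for H3K4me3, with a median log2 shift of 0.68, and by 0.90 at Cda and by 0.69 at As3mt. The median shift was 0.48 for H3K9/14ac and 0.28 for H3K27ac, with Cda at 0.62 and 0.32 and As3mt at 0.48 and 0.22. Shifts in the WT groups were smaller, with medians from 0.16 to 0.29 for H3K4me3 and H3K9/14ac. They ran the other way for H3K27ac in WT, where replicate 2 was higher at 8 of 23 promoters, with a median of -0.12, Cda at -0.13 and As3mt at -0.19. Cda in H3K9/14ac at P6 also went against its group, at -0.33 beside a median of 0.16. What produced these shifts was not tested.

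The pattern of Cda over the 16 libraries, after removal of each mark's mean, was most like that of As3mt, with a Pearson correlation of 0.97. Next came Cpne6, a copine gene (0.97), and Cplx3, a complexin gene (0.96). For As3mt the closest were Cda, Cpne6 (0.97) and Ripk4 (0.97). The median correlation with the 22 other promoters was 0.82 for Cda and 0.85 for As3mt, so a high value was usual, and the libraries share groups and shifts. Both genes were picked with the scores of these libraries known, so their likeness supports nothing further. With each of the same libraries centred on its median, Cda and As3mt were each other's closest match at 0.88. Ripk4 came next for both, at 0.62 with Cda and 0.75 with As3mt, whereas Cpne6 correlated at 0.12 with Cda and 0.28 with As3mt, and Cplx3 at 0.09 with Cda.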

How the data were processed

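Chromatin from cerebella was immunoprecipitated and sequenced on an Illumina HiSeq 2000, per the labels' protocols. BWA and mm9 are named, without role or version, in the submitters' processing notes. The deposited gene table gives a score with 2 decimals per gene and library, from -0.82 to 67. The window, background step and scaling are not stated, so depth and counting error are unknown. The deposited curve table gives a mean score per position; its error columns, another deposited value, have no stated basis and were not used. WT columns that give no age were taken as P22. The 2 input samples of the series were not analysed here.

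Members and gene lists were chosen with earlier results of these data known. For each mark, limma (3.58.1, in R 4.3.3) was fitted to all its libraries on log2(score + 2) over all promoters with values, with no covariate. It gave differences and SEs, and no p-value was formed for the members. This scale understates changes of low promoters, and the SE is pooled over promoters. The fit has no term for a shift of a whole library, and whether its SEs hold under such shifts was not tested. Separation means that all libraries of one group lie beyond those of the other. Named beside the members were the promoters ranked next to them and the 3 most similar over libraries, by Pearson correlation of values less each mark's mean. Within-library values subtract the median of the 21 other promoters with complete values. Promoter windows came from RefSeq (GRCm38.p6), where 23 of 24 gene names matched. Alternatives were pseudocounts of 1 and 10, dropping promoters that reach a score of 1 in fewer than 2 libraries, libraries centred on the median, the replicate block, fits of 2 groups and each library left out. Other steps used Python 3.11.15 with pandas 2.3.3, numpy 2.4.6 and, for plots, matplotlib 3.10.9.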

Additional observations from a re-analysis of the deposited data

How the results depend on the processing

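All differences in this paragraph are on a log2 scale. Where the libraries of a comparison were apart, only centring them on the median could change the direction of a difference. It changed none at Cda or As3mt. The other alternatives keep that direction by construction. The score filter, fits of 2 groups and the replicate number as a block leave the 14 differences of the 2 genes unchanged by construction. Only the SE can change there. The replicate block left each value as it was (Cda H3K4me3 cKO minus WT at P22, 2.82) and changed the SE there from 0.36 to 0.23. The SE went from 0.28 to 0.17 in H3K9/14ac, and in H3K27ac it went from 0.22 to 0.27. Deviations of same-numbered libraries correlated at 0.22 to 0.74 over promoters within H3K4me3 and H3K9/14ac and at -0.29 for H3K27ac. With 2 libraries per group, and labels that say nothing of a shared day or litter, the numbers were not taken as pairs. A block with crossed numbers for H3K27ac, added after the data were seen, gave an SE of 0.16. No calls were counted in either fit.

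The pseudocount and the centring set the size. With a pseudocount of 1 the Cda differences between cKO and WT at P22 were 3.32, 2.42 and 2.36 for H3K4me3, H3K9/14ac and H3K27ac, and the acetylation differences of As3mt were 1.90 and 1.74. With 10 they were 1.44, 0.98 and 0.93 for Cda and 0.93, 0.59 and 0.64 for As3mt. Against P6, the cKO differences of Cda in H3K4me3 and H3K9/14ac were 4.32 and 2.79 with a pseudocount of 1 and 1.58 and 1.05 with 10. Those of As3mt were 0.94 and 0.53 with 10, and 1.58 for H3K9/14ac with 1. The H3K4me3 difference between WT ages at Cda was 0.99 with 1 and 0.14 with 10. Low scores weigh more with a small pseudocount by construction. Centred libraries gave 1.73, 0.95 and 0.92 for Cda and 0.67, 0.42 and 0.39 for As3mt between genotypes at P22, and against P6 2.38 and 1.10 for Cda and 0.77 and 0.075 for As3mt. The lowest cKO library then exceeded the highest WT library by 1.41, 0.73 and 0.89 at Cda and by 0.48, 0.0014 and 0.34 at As3mt in the 3 marks. Promoters of the table with such separation numbered 3, 3 and 8 after centring, against 12, 20 and 22 before.

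With each library left out in turn, the genotype difference at Cda ranged over 2.37 to 3.27 (H3K4me3), 1.73 to 2.35 (H3K9/14ac) and 1.83 to 2.14 (H3K27ac). Ranges at As3mt were 1.42 to 2.11, 1.27 to 1.74 and 1.34 to 1.56. Against P6 the ranges were 2.96 to 3.86 and 1.99 to 2.61 for Cda, and 1.46 to 2.15 and 1.04 to 1.52 for As3mt. Leaving out 1 library leaves a group with a single library, which was assumed to vary like the others. The H3K4me3 age difference of As3mt ranged from -0.19 to 0.27, with no direction of its own. Without log, in the same libraries, Cda and As3mt were each other's closest match. Cpne6 then correlated at 0.83 with Cda and at 0.81 with As3mt, Cplx3 at 0.93 with Cda and Ripk4 at 0.97 with As3mt. Depth is unknown, so counting error could not be set beside these values.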
